A study of Homo sapiens with 12 samples.

Results

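Ribosomal protein genes encode the structural proteins of the large (RPL) and small (RPS) ribosomal subunits. The genes described here carry a ribosomal protein symbol, that is a name that starts with RPL or RPS and a number, with RPLP or with RPSA, whatever their biotype. The rule was applied to the tables of genes that were deposited for 3 human breast cell lines after transit through capillary-sized constrictions. It found 38 genes among the 3090 distinct genes listed, of which 35 were pseudogenes and 3 were protein-coding, RPL26 and RPL30 among them. Together they filled 41 entries, 22 of the 2680 genes listed for MCF-10A, 16 of the 381 for MDA-MB-231 and 3 of the 97 for LM2. One pseudogene, RPL39P3, was listed in all 3 cell lines, RPL26 was listed in 2, and the other 36 were listed in 1.

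The study sequenced 12 libraries, with 2 constriction and 2 control libraries for each line. The constriction group was driven through channels with a width of 5 µm, a height of 5 µm and a length of 150 µm at hydrostatic pressures of 7 to 33 cmH2O and was collected after transit, while the control group did not transit. MDA-MB-231 is a metastatic breast cancer cell line, LM2 is its lung metastatic variant, and MCF-10A, an epithelial line from non-malignant breast, was grown with horse serum, insulin, epidermal growth factor, cholera toxin and hydrocortisone. All cultures were kept at reduced oxygen, and each group is 1 established line, so the replicates are repeat experiments on that line and not separate donors. Total reads per library ran from 29978695 to 53584754, which makes 3 reads worth 2.37 to 3.81 normalised counts. In the study's supplement, both constriction samples of MDA-MB-231 and of LM2 yielded far less total RNA than their controls. For MCF-10A the order differed between the replicates. In the cancer lines this difference in RNA amount cannot be told apart from transit. Every gene in the tables had been selected by the authors at an unadjusted p-value under 0.05 in these same libraries, so the tests below describe listed genes and are not independent evidence that they changed. The paper's methods name a DESeq2 adjusted p-value of 0.05 or less instead. None of the 10 epithelial and 7 mesenchymal marker genes looked up was listed in any table, so the identity of the lines could not be checked against markers. The first constriction library of MCF-10A stood apart from the second in several of the genes below, and their log2 ratios are given with and without it.

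Mammalian genomes hold, beside the genes that encode ribosomal proteins, many processed pseudogenes, which are intronless copies made when a messenger RNA was reverse transcribed and inserted elsewhere. Ribosomal protein messenger RNAs are abundant and short, and they have left more such copies than most gene families. Many copies keep a sequence close to that of their parent, so that a short read from the parent can match the copy as well. In the GENCODE 29 annotation of GRCh38 the naming rule matched 1255 genes, of which 1150 had a pseudogene type and 101 were protein-coding, 77 of them once kinases, fusions and -like genes were set aside. The coordinates of all 38 listed genes equalled that annotation.

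The pseudogene shared by the 3 cell lines shows how close a copy can be. RPL39P3 lies at chr6:73373108-73373263 on the minus strand (GRCh38), in an intron of OOEP on the same strand. RPL39, its parent, encodes a very small protein of the large subunit and has its coding exons on chromosome X. The copy and the parent's coding sequence are given in lower case throughout, because no base differs between them over 156 bases.
RPL39P3: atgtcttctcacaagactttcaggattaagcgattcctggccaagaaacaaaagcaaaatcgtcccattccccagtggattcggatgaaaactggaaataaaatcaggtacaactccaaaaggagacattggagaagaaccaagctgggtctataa
RPL39: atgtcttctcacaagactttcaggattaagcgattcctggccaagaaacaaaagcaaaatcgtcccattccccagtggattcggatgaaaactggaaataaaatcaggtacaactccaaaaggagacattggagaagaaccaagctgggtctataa

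A second copy of the same parent was listed in MCF-10A, with a higher mean after transit that did not pass the test and came mostly from 1 library. RPL39P36 lies at chr19:53413190-53413345 on the plus strand, in an intron of ZNF765, and was chosen for display after its values were seen. Capitals mark the 12 of 156 bases at which it differs from RPL39. The first of them, T2G and G3A, counted from 1 at the first coding base with the parent's base first, remove the start codon.
RPL39P36: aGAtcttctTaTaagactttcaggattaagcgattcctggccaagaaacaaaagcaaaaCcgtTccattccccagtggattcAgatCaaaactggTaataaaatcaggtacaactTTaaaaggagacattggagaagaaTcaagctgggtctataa

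Further near-identical copies were listed in MDA-MB-231, and these were also chosen for display after their values were seen. RPL41P5 (chr12:93083598-93083675, minus strand) is identical over its 78 bases to the coding sequence of RPL41, whose product is among the smallest proteins of the large subunit. RPL21P16 and RPL21P75 are both copies of RPL21. RPL21P16 matched the parent at all 483 coding bases and RPL21P75 at all but 1, the substitution G397A. Their 61-base windows around that position, chr10:120354757-120354817 on the minus strand and chr7:20003131-20003191 on the plus strand, are shown with the differing base in capitals.
RPL41P5: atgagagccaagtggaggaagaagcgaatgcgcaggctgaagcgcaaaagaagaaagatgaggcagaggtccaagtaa
RPL21P16: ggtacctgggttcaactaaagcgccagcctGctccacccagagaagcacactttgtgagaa
RPL21P75: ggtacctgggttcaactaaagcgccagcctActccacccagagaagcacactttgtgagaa

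Across the 35 listed pseudogenes, identity to the parent's coding sequence ran from 65.26% to 100% of aligned bases, with a median of 94.94%. The 65.26%, of RPL7P57, rests on 190 aligned bases. Identity was 95% or more in 17 of the 35, and 29 covered at least 95% of the coding sequence. The 1109 annotated pseudogenes with a numbered ribosomal protein symbol that were compared and listed in no table had a median identity of 90.77%, and 14.878% of them reached 95%. The read length in the study's methods was 150 bases, and 9 listed pseudogenes had an identical run at least that long. Shorter copies cannot reach that length, so RPL41P5, identical over all its 78 bases, is not among the 9. The sources used here do not state how reads with several matching positions were counted, so the values of near-identical copies are uncertain. No parent of these 35 pseudogenes was itself listed, so none of them could be set beside its own parent in these tables. By position, 17 of the 35 pseudogenes lay inside an intron of another gene, 14 lay between genes and 4 overlapped an exon of another gene.

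RPL39P3 had a lower mean after transit in all 3 cell lines, and the 2 groups did not overlap in any of them with the authors' size factors. In MCF-10A it had 368 and 845 normalised counts in the constriction libraries and 6483 and 2434 in the control libraries. In MDA-MB-231 the constriction libraries had 1029 and 941 normalised counts against 5414 and 2810 in control, and in LM2 they had 1376 and 1883 against 5188 and 4397. Both constriction libraries were the low ones in each line, while the control libraries of MCF-10A were themselves 2.66-fold apart. The log2 ratio of constriction to control, on the log2(mean normalised count + 1) scale, was -2.88 ± 0.87 (SE, n = 2 and 2 libraries) in MCF-10A. It was -2.06 ± 0.46 for MDA-MB-231 and -1.56 ± 0.25 for LM2. The MCF-10A value was -2.0 without the first control library and -3.60 without the second constriction library. None of these passed edgeR's quasi-likelihood test over all genes, with adjusted p = 0.574, 0.614 and 1. With the replicate number as a block, the adjusted p was 2.02e-43 for MDA-MB-231, 2.05e-11 for MCF-10A and 1 for LM2. These were the lowest values over the alternatives, and the highest was 1 in each line. With 2 libraries a group the block leaves hardly any residual degrees of freedom, and its dispersion rests on the listed genes. Its p-values, here and below, are therefore a poor measure of the spread between replicates. In bulk samples a lower level can mean fewer cells of a kind or less RNA per cell, which cannot be told apart. With TMM factors of the listed genes, its log2 ratio in MCF-10A was -1.55 and the groups overlapped there. The second constriction library, at 4231, lay above the second control library, at 3824. TMM takes most genes as unchanged, while 94.5% of the genes listed for MCF-10A were lower. It set the first constriction library there to 10.6 times and the second to 0.2 times the authors' factor. Values with TMM factors in MCF-10A, here and below, therefore cannot decide whether groups overlap. In each cell line RPL39P3 had the highest mean FPKM, a level per kilobase of gene length, of the ribosomal protein pseudogenes listed there. The mean FPKM was 800 in control and 106 after transit for MCF-10A, 563 and 137 for MDA-MB-231, and 662 and 226 for LM2. The difference between cell lines was not tested, because their tables were normalised separately.

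RPL26, a protein of the large subunit that lies near the exit of the peptide tunnel, was the 1 protein-coding ribosomal protein gene listed in both cancer lines and had a lower mean in each. RPL26 lies at chr17:8377516-8383250. In MDA-MB-231 it had 954 and 661 normalised counts after transit and 2057 and 1437 in control. In LM2 it had 680 and 1067 after transit and 1647 and 2352 in control. The groups did not overlap in either line, but they did in LM2 with TMM factors. The log2 ratio was -1.11 ± 0.37 (SE) in MDA-MB-231 and -1.19 ± 0.41 in LM2, each with 2 libraries a group. The edgeR adjusted p was 1 in both lines, and with the replicate block it was 8.78e-12 in MDA-MB-231 and 1 in LM2.

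Reads assigned to RPL26 cannot be taken as its own in full. It shares exons with a readthrough gene, AC135178.2, on its own strand. The antisense gene AC135178.3 overlaps part of it without sharing an exon and was itself listed in MDA-MB-231, with 27 and 49 reads in the constriction libraries and 82 and 108 in the control ones. Preparation of directional as well as non-directional libraries is described without saying which was used, so reads of the 2 strands may not have been told apart. What these neighbours contribute to the values of RPL26 was not tested.

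**Figure D1:**
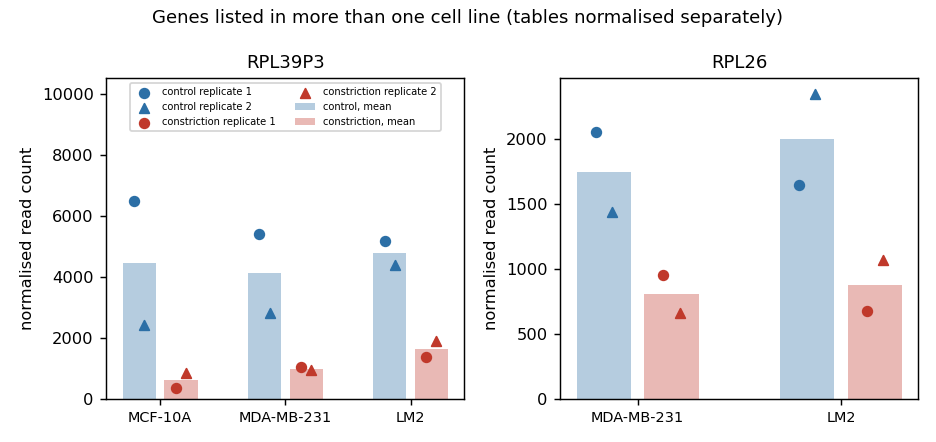
Normalised read counts of RPL39P3 (left) and RPL26 (right) on linear axes from 0, by cell line and group. Bars are means of 2 libraries and points are the libraries, circles for replicate 1 and triangles for replicate 2. Every constriction library lies below every control library of the same line, and the control libraries of RPL39P3 in MCF-10A, at 6483 and 2434, are the farthest apart.

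In MDA-MB-231, RPL30 was on the other side from RPL26. RPL30, a large subunit protein on chromosome 8, had 13120 and 9890 normalised counts after transit and 9520 and 7274 in control. The constriction libraries of RPL30 were above both control libraries, but 9890 and 9520 lie close together, and the log2 ratio was 0.45 ± 0.28 (SE). With TMM factors it was 0.05 and the groups overlapped. The edgeR adjusted p of RPL30 was 1, and with the replicate block it was 0.000167. MATN2, listed in the same table with a lower mean after transit, overlaps the span of RPL30 on the opposite strand without sharing an exon. RPL30 also overlaps an exon of AP003352.1, an unlisted antisense gene on the opposite strand. What reads of MATN2 and AP003352.1 add to the values of RPL30 was not tested.

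Among the 13 pseudogenes listed in MDA-MB-231, 7 had a lower and 6 a higher mean after transit. The lower ones were 53.8% of the 13, against 33.3% of all genes in the table. Of the 83 other pseudogenes in the table, 24 (28.9%) were lower, and of its 144 protein-coding genes 60 (41.7%) were. The other pseudogenes were set apart by symbol alone, so they take in copies of ribosomal protein genes that carry a clone name. Of 9 such copies listed for the line, 2 (22.2%) were lower, so the contrast depends on how copies are named. The median log2 ratio was -0.56 over the ribosomal protein pseudogenes and 1.08 over all listed genes. The ribosomal protein pseudogenes were also read more deeply than most of the table, with a median of the mean normalised count of 376 against 28.7 over all listed genes.

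Of the 12 large subunit genes and copies in MDA-MB-231, 8 had a lower mean after transit. RPL21P75, the copy of RPL21 shown above, had 108 and 70.2 normalised counts after transit and 226 and 207 in control. RPL21P16, the identical copy of the same parent, had 536 and 355 after transit and 733 and 611 in control. Both copies were lower in both constriction libraries, by log2 ratios of -1.28 ± 0.31 (SE) and -0.59 ± 0.32. RPL9P7, whose parent encodes a protein of the large subunit, had 276 and 212 normalised counts against 495 and 425, a log2 ratio of -0.91 ± 0.22. RPL41P5 had 58.6 and 46.2 against 131 and 109, a log2 ratio of -1.18 ± 0.21. The 61-base windows differ by 1 base between the RPL21 copies, and reads that do not cover that position match both.

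The other lower pseudogenes of MDA-MB-231 were copies of RPL10 and RPL14. RPL10P9, a copy of the gene for a late-joining large subunit protein, had 526 and 369 normalised counts after transit and 756 and 623 in control. RPL14P1 had 364 and 305 after transit and 516 and 471 in control. Their log2 ratios were -0.62 ± 0.29 (SE) and -0.56 ± 0.14, and in both genes the groups did not overlap.

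Copies of RPSA, which encodes a small subunit protein also known as the laminin receptor, were on the higher side. RPSAP47 had 548 and 419 normalised counts after transit and 329 and 209 in control, a log2 ratio of 0.84 ± 0.37 (SE). RPSAP15 had 2213 and 1364 after transit and 1404 and 945 in control, a log2 ratio of 0.61 ± 0.44. The groups of RPSAP15 overlapped, since its second constriction library was below its first control library. RPL24P4, a copy of a large subunit gene, had 720 and 560 after transit and 409 and 376 in control, a log2 ratio of 0.71 ± 0.19 with no overlap. With TMM factors the log2 ratios of RPSAP47, RPSAP15 and RPL24P4 were 0.44, 0.20 and 0.30.

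Another 3 pseudogenes had no read in either control library. RPS20P15 had 11 and 10 reads after transit, RPL36AP33 had 7 and 13, and RPL35AP25 had 7 and 10. Against 3 reads in each control library, they were at least 3.13-fold, 2.95-fold and 2.52-fold higher after transit. Among all genes listed for the line, 16.5% had 0 reads in both control libraries.

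No ribosomal protein gene or pseudogene of MDA-MB-231 passed edgeR's test over all genes, where 0.262% of listed genes did. At an unadjusted p under 0.05 there were 14 of 16, against 94% of listed genes. DESeq2 called 1 (RPL39P3), limma 0 and edgeR with TMM factors 2 (RPL39P3 and RPL26), against 2.36%, 0% and 3.94% of listed genes. With the replicate block 8 of 16 passed, against 22.6% of listed genes: RPL39P3, RPL26, RPL21P75 and RPL9P7 fell in that fit, and RPSAP47, RPL24P4, RPSAP15 and RPL30 rose. The blocked adjusted p was 0.0031 for RPSAP15, 0.0105 for RPL9P7, 0.016 for RPSAP47, 0.0372 for RPL21P75 and 0.0455 for RPL24P4, and the highest over the alternatives was 1 for each. Groups did not overlap for 15 of the 16, against 94.5% of all listed genes.

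**Figure D2:**
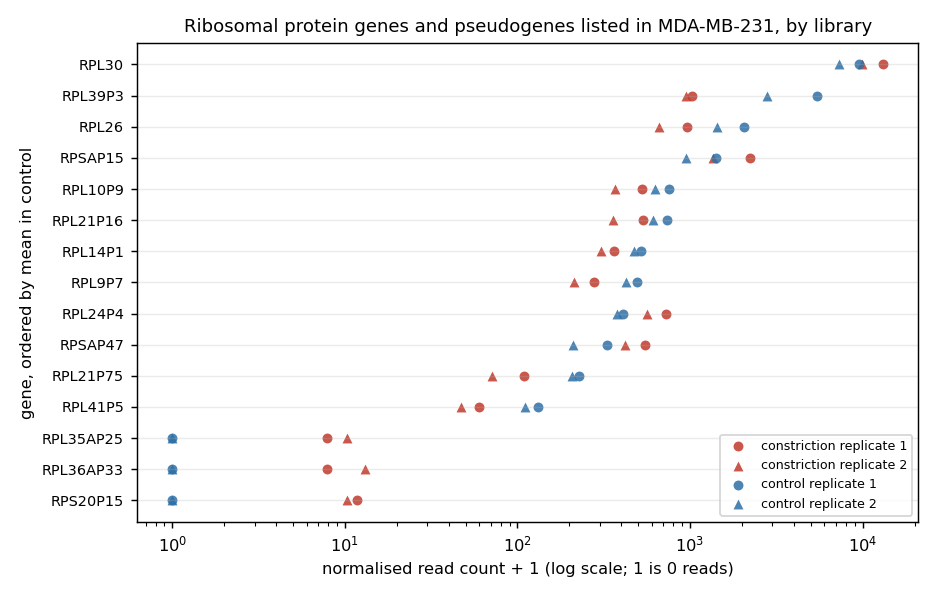
Normalised read count plus 1 (log axis, where 1 is 0 reads) of RPL26, RPL30 and the 13 ribosomal protein pseudogenes listed in MDA-MB-231, ordered by the control mean and not scaled to gene length. Red marks are constriction libraries and blue marks control libraries, circles for replicate 1 and triangles for replicate 2. RPL39P3 shows the widest gap among genes read in both groups, and the 3 lowest rows have no control reads.

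In LM2, 3 ribosomal protein entries were listed, and 2 of them, RPL39P3 and RPL26, were lower after transit, against 46.4% of all listed genes. The third, RPL31P47, is a copy of the gene for a large subunit protein. RPL31P47 had 19 reads in the first constriction library and 0 in the second, and 0 in both control libraries. One library therefore carries its whole signal, and the groups overlap at 0. Against 3 reads in each control library its mean was at least 3.88-fold higher. Groups did not overlap for 2 of the 3, against 82.5% of listed genes. In LM2 edgeR called 0 of 3, against 0% of listed genes, 1 of 3 was under an unadjusted p of 0.05, against 41.2%, and DESeq2, limma and TMM factors called 0 of 3 and 0% of listed genes. With the replicate block 1 passed, RPL31P47 with adjusted p = 0.0224, against 28.9% of listed genes. Without the first constriction library RPL31P47 has no read in any library and no value.

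In MCF-10A all 22 entries were pseudogenes, and 19 of them had a lower mean after transit. The share is not particular to them, since 94.5% of all genes in that table were lower and 283 of the 318 other pseudogenes (89%) were. The median log2 ratio of the 22 was -3.45, against -4.05 over all listed genes. With genes that had no constriction read set at their bound, these medians were -2.17 and -2.27. The 19 lower entries included 13 copies of large subunit genes and 6 of small subunit genes.

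**Figure D3:**
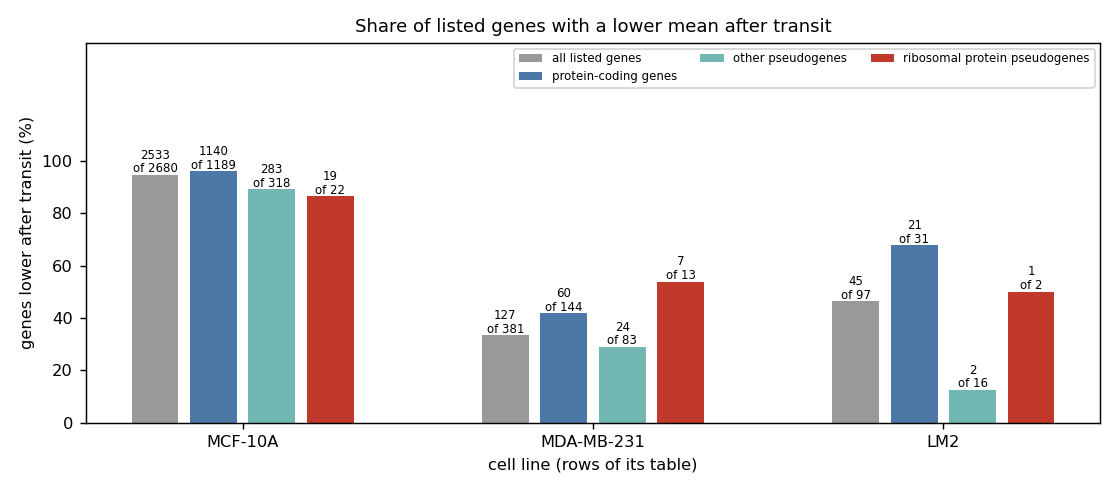
Share of listed genes with a lower mean normalised count after transit (percent, bars from 0), by cell line and gene group, with the numbers of genes above each bar. Other pseudogenes take in copies of ribosomal protein genes that carry a clone name. In MDA-MB-231 the ribosomal protein pseudogenes stand at 7 of 13 and other pseudogenes at 24 of 83, while in MCF-10A all groups lie between 86.4% and 95.9%.

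Of the 22 pseudogenes in MCF-10A, 11 had no read in either constriction library, against 89.6% of all genes in the table. RPL32P3, the 1 unprocessed copy among the 22, on chromosome 3, had 143 and 115 normalised counts in control and 0 in both constriction libraries, and was at least 38.3-fold lower against 3 reads in each. RPL32P3 overlaps exons of AL449212.1 on the opposite strand, which was listed as well with 0 constriction reads and 29 and 33 control reads. RPL23AP64 had 21.5 and 66.3 in control and 0 in both constriction libraries, at least 13.1-fold lower. Its control libraries were 3.08-fold apart, and its log2 ratio, -5.49 with all libraries, was -4.49 without the second control library. The other 9 were RPL12P14, RPL22P24, RPS4XP16, RPS12P26, RPL13P5, RPS20P33, RPL21P89, RPL5P23 and RPS3AP25. Their control means lay between 8.94 and 20.1 normalised counts, and they were at least 2.66-fold to at least 5.97-fold lower.

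Other pseudogenes of MCF-10A kept reads after transit. RPS7P10 had 20.5 and 20.7 normalised counts after transit and 273 and 126 in control, a log2 ratio of -3.21 ± 0.53 (SE) that was -2.55 without the first control library and -2.39 with TMM factors. RPL10AP6 had 32.5 and 48.7 after transit and 172 and 126 in control, a log2 ratio of -1.85 ± 0.36. RPL29P11 had 33.8 and 23.8 after transit and 77.3 and 105 in control, a log2 ratio of -1.63 ± 0.32. All of these were lower in both constriction libraries than in either control library, and none passed the test, with an edgeR adjusted p of 1 for each. With TMM factors the groups of RPL10AP6 and RPL29P11 overlapped, and their log2 ratios were -0.79 and -1.12.

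The remaining lower pseudogenes had a handful of reads after transit. RPL5P4 had 2 and 2 reads against 50 and 44 in control, and RPL13AP7 had 2 and 2 against 16 and 16. Their ratios of pooled normalised counts, with exact conditional 95% intervals that cover counting error only, were 0.0542 (0.0145 to 0.144) and 0.159 (0.0409 to 0.449). RPL24P2 had 0 and 1 reads against 25 and 27, a ratio of 0.0245 (0.000609 to 0.143). RPS3AP5 had 2 and 4 reads against 52 and 25, a ratio of 0.0993 (0.0353 to 0.226). Its log2 ratio, -3.09 with all libraries, was -2.28 without the first control library and -2.14 with TMM factors.

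In MCF-10A 3 pseudogenes had a higher mean after transit, and in each most reads came from the first constriction library. RPL39P36, the diverged RPL39 copy shown above, had 495 and 34 constriction reads and 4 and 8 control reads. RPL7P57, a copy of a large subunit gene on chromosome X, had 561 and 0 constriction reads and 4 and 9 control reads. RPS26P47, which differs from the coding sequence of the small subunit gene RPS26 at 2 of 348 bases, had 245 and 6 constriction reads and 10 and 9 control reads. The log2 ratios were 5.70 ± 1.31 (SE) for RPL39P36, 5.70 ± 1.48 for RPL7P57 and 4.01 ± 1.39 for RPS26P47. Without the first constriction library, the log2 ratio was -2.70 for RPL7P57 and -0.39 for RPS26P47, so that the direction of both turned. For RPL39P36 it was 2.57, and its groups did not overlap. With TMM factors the log2 ratios were 3.77 for RPL39P36, 1.84 for RPL7P57 and 1.21 for RPS26P47, the second constriction library of RPL39P36 (176) was above its first (56.5), and both of RPS26P47 (27.9 and 31.1) lay above its control libraries (13.1 and 11.2). The edgeR adjusted p was 0.306, 0.424 and 0.79, and DESeq2 called RPL39P36 higher.

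In MCF-10A edgeR called 13 of the 22 pseudogenes, all lower after transit, against 91.5% of all listed genes. The 13 were the 11 without constriction reads together with RPL5P4 and RPL24P2. RPL39P3 was not among them, but DESeq2 called it, as did edgeR with a minimum mean normalised count of 10 and without the second control library. Their adjusted p ran from 0.00469 to 0.0438. With the replicate block 11 passed, against 74.2% of listed genes, and 10 of these were among the 13. RPL32P3, RPL23AP64 and RPL5P4 left the list with adjusted p of 1, 0.113 and 0.666, and RPL39P3 entered it. Without the first constriction library 0 of 22 passed edgeR's test, against 0% of listed genes, and 15 were under an unadjusted p of 0.05, against 93.9%. Without the second, 2 passed (RPL39P36 and RPL7P57, both higher), against 2.57% of listed genes. Without the first or second control library 5 and 1 passed, against 20.8% and 0.149%. Each fit without a library has 1 library in a group and takes the spread from the other group alone, so its calls are weak. With all libraries, groups did not overlap for 20 of the 22, against 96.8% of listed genes.

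**Figure D4:**
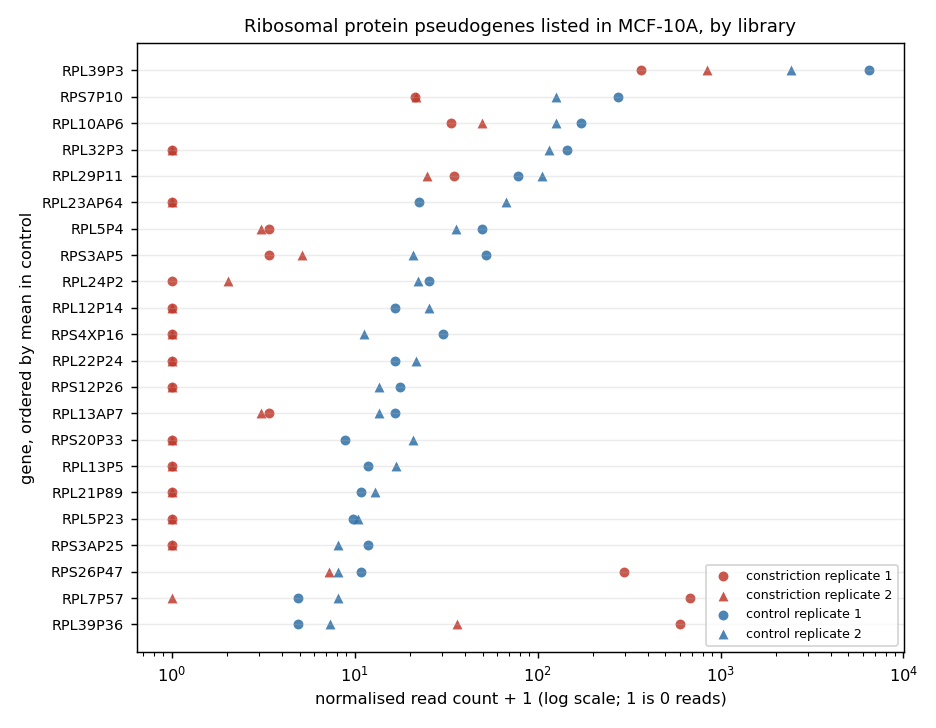
Normalised read count plus 1 (log axis, where 1 is 0 reads) of the 22 ribosomal protein pseudogenes listed in MCF-10A, ordered by the control mean and not scaled to gene length. Red marks are constriction libraries and blue marks control libraries, circles for replicate 1 and triangles for replicate 2. For 11 pseudogenes both constriction libraries lie at 0 reads, and in the 3 lowest rows only the first constriction library, or both for RPL39P36, lies above control.

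The pseudogenes that had reads in both groups and those that had none in one group differed in their likeness to the parent gene. In MCF-10A the 11 pseudogenes with no constriction read had a median identity of 92.93% (78.86% to 96.46%), and the 11 with reads in both groups had a median of 98.11% (65.26% to 100%). RPL7P57, at 65.26%, was the lowest, but only 190 bases aligned, 25.44% of the coding sequence, with a longest identical run of 13 bases. That value is therefore no measure of likeness over the whole copy. In MDA-MB-231 the 3 pseudogenes without control reads had identities of 80.65% (RPS20P15), 88.39% (RPL36AP33) and 89.09% (RPL35AP25), while the 10 with reads in both groups lay between 96.85% and 100%. In LM2, RPL31P47 stood at 82.92% and RPL39P3 at 100%. The longest identical run to the parent had a median of 46 bases in the MCF-10A pseudogenes without constriction reads and of 143 bases in those with reads in both groups.

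The pseudogenes of MDA-MB-231 read in both groups also had the higher levels. The mean FPKM of the 10 pseudogenes of MDA-MB-231 read in both groups ran from 6.80 to 350, and that of the 3 without control reads from 0.264 to 0.348. Within these 10 the order of level and identity was mixed. RPL39P3, at 100%, had the highest mean FPKM and RPSAP47, at 96.85%, the second lowest (9.14), while RPL21P75 at 99.79% had the lowest and RPSAP15 at 98.14% had 37.1. In MCF-10A RPL13AP7 at 97.38% had a mean FPKM of 0.373 and RPL23AP64 at 92.61% had 1.39. The mean FPKM of RPL7P57 and RPL39P36 there, 6.42 and 28.4, rests on the first constriction library, in which they had 25.3 and 106 against 0 and 6.14 in the second. These points share libraries and depth, and 0 reads in one group lower the mean over all libraries, so the values are a description with no test. How far reads from the parents contribute to the near-identical copies was not tested.

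**Figure D5:**
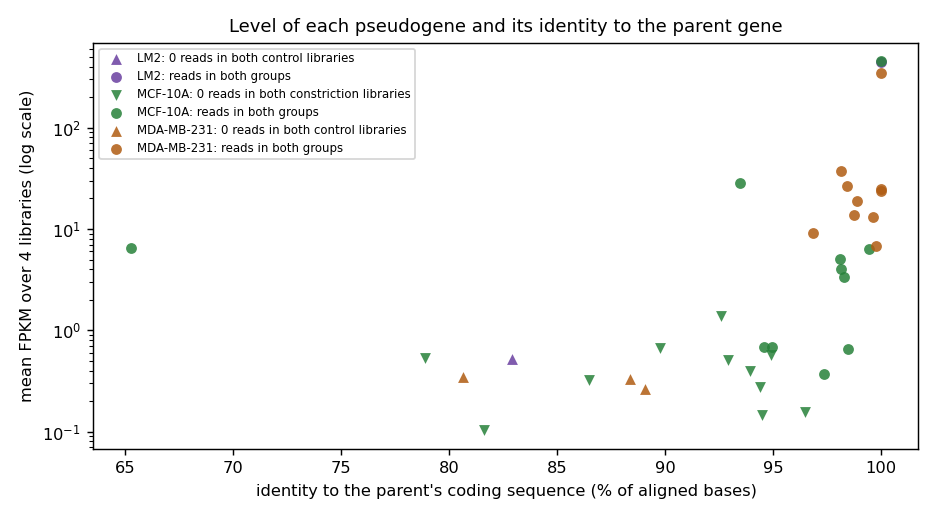
Mean FPKM over the 4 libraries of a cell line (log axis) against identity to the parent's coding sequence (percent of aligned bases) for the 37 pseudogene entries. Colours mark the cell line, circles mark reads in both groups and triangles mark 0 reads in one group. The point at 65.26%, RPL7P57, rests on 190 aligned bases. RPL39P3, at 100% identity, has the highest level in each line, from 350 to 453, and the highest pseudogene without reads in one group lies at 1.39.

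Copies of ribosomal protein genes that carry a clone name instead of a ribosomal protein symbol were described alongside, from the gene description in the tables. Among such copies, 18 of 20 in MCF-10A, 2 of 9 in MDA-MB-231 and 0 of 2 in LM2 had a lower mean. One of them, AC078817.1, is a copy of RPL26 and was on the other side from its parent in MDA-MB-231, with 49 and 41 constriction reads and 0 and 3 control reads. AL355032.1, a copy of RPL26L1, was higher in all 3 lines, with log2 ratios of 3.31 for MDA-MB-231, 3.21 for MCF-10A and 2.36 for LM2. In MCF-10A its log2 ratio was 1.52 without the first constriction library, an alternative added after the data were seen. In LM2 it had 531 and 221 constriction reads and 94 and 76 control reads, and no ratio without a library was computed there. AC004453.1, a copy of RPL32, was lower in MCF-10A (log2 ratio -1.92) and in MDA-MB-231 (-1.08).

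Other genes of translation were rare in the tables. Of the protein-coding translation factors, 0 were listed in MCF-10A, 2 in MDA-MB-231 (EIF3CL and EIF4A1, 1 lower and 1 higher) and 1 in LM2 (EIF3C, higher). Pseudogenes of translation factors numbered 4 in MCF-10A, all lower, 3 in MDA-MB-231, all lower, and 2 in LM2, 1 lower and 1 higher. The 3 in MDA-MB-231 were copies of EEF1A1, which encodes the factor that brings aminoacyl-tRNA to the ribosome. Mitochondrial ribosomal protein symbols were listed in MCF-10A alone, with 2 of 3 lower, and none of the 18 further genes looked up, whose messages share the start motif of ribosomal protein messages or whose products act with the ribosome, was listed in any line. Of the 4 translation factor pseudogenes in MCF-10A, 2 passed edgeR's test, against 91.5% of listed genes.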

How the data were processed

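Members and gene lists were chosen with earlier results of these data known. RNA sequencing of 12 libraries was analysed, 2 constriction and 2 control libraries for each of MCF-10A, MDA-MB-231 and LM2. The deposited counts come from poly-A RNA, with reads cleaned by fastp, mapped to GRCh38 by HISAT2 2.0.5 and assigned to genes by featureCounts 1.5.0-p3. The normalised counts (signal) that the authors deposited are counts divided by a size factor per library, computed with DESeq2 1.20.0 within the cell line. The authors computed the deposited FPKM from the counts and gene lengths. The deposited p-values of the authors, unadjusted and adjusted, served only to recover that adjustment ran over 19236, 23976 and 30209 genes, and their fold changes and enrichment results were not used.

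Each table was fitted whole with edgeR 4.0.16 (quasi-likelihood test) in R 4.3.3 on counts, scaled by the size factors of the authors. The Benjamini-Hochberg adjustment set the p-value of unlisted genes to 1. Calls are two-sided, with an adjusted p-value under 0.05. The dispersion rests on the listed genes alone. The script was tested on simulated data. Log2 ratios compare group means with a pseudocount of 1, with the SE from the spread between libraries. Bounds take 3 reads in each library of a group at 0. Alternatives were DESeq2 1.42.0, limma 3.58.1, TMM factors of the listed genes, a minimum mean normalised count of 10, pseudocounts of 0.5 and 10, a replicate block and each library left out. With a library left out, its group holds 1 library, so the calls of those fits rest on the spread of the other group.

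Each replicate experiment is listed in the study's supplement with its own control and constriction cells, so libraries of the same number were taken as pairs. The correlation of the deviations of same-numbered libraries from their group means, over genes whose mean normalised count was 10 or more, was 0.159 for MDA-MB-231, 0.048 for LM2 and -0.11 for MCF-10A. For 1 LM2 constriction library the title says 2 and the description 1, and it was used as replicate 2.

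Pseudogenes were aligned to the coding sequence of the parent's principal transcript in GENCODE 29 (Biopython 1.88, local alignment). Named are every protein-coding gene (1 is not reported here), every gene of the MDA-MB-231 and LM2 tables or of more than 1 table, and in MCF-10A the 10 pseudogenes with the highest mean count and those with constriction reads or a higher mean. The others are listed by name with ranges only.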

Additional observations from a re-analysis of the deposited data

How the results depend on the processing

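The log2 ratios of RPS26P47 and RPL7P57 in MCF-10A changed sign without the first constriction library, and no other log2 ratio did under the pseudocounts, TMM factors or left-out libraries. In MCF-10A the number of pseudogenes called, 13, stayed within 1.5 times under DESeq2, limma, TMM factors and the replicate block, which called 93%, 62.5%, 87.2% and 74.2% of listed genes. It was 6 with a minimum mean normalised count of 10, where 13 pseudogenes were tested, against 74% called of the 1209 listed genes tested. Of these 13 pseudogenes, 10 were lower and 11 did not overlap, lower counts since fewer genes are tested. The shares of all listed genes that were lower or without overlap at that minimum were not computed. The number called ran from 0 to 5 with 1 library left out. With the replicate block and crossed numbers, an alternative chosen after the data were seen, it was 1, against 0.187% of listed genes. The median log2 ratio of the MCF-10A pseudogenes was -4.25 with a pseudocount of 0.5 and -1.44 with a pseudocount of 10. In MDA-MB-231 the number called, 0, was 1 under DESeq2, 2 with TMM factors, 8 with the replicate block, and 0 to 1 with 1 library left out. The 1 was RPL39P3, called without the first and without the second control library, against 1.84% and 2.1% of listed genes. In LM2 it was 1 with the replicate block, the median log2 ratio of the pseudogenes was -0.24 with a pseudocount of 10 against 1.01, and 1 gene of 3 did not overlap with TMM factors, against 84.5% of listed genes, the cause of which was not tested.

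TMM factors, which rest on listed genes alone, shifted the median log2 ratio of all listed genes by 0.12 for LM2, -0.41 for MDA-MB-231 and -0.47 for MCF-10A, and no ribosomal protein gene or pseudogene changed sign under them. In MCF-10A they set the first constriction library to 10.6 times and the second to 0.2 times the authors' factor, so values with them in that line cannot decide overlap. Groups then did not overlap for 18 of 22 in MCF-10A (20 with the authors' factors) and 14 of 16 in MDA-MB-231 (15), against 95.4% and 85% of listed genes. The replicate block changed no other call than those given. With 2 libraries a group, low counts limit most pseudogenes of MCF-10A, and the counting error of those with 0 reads allows up to 3 reads.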
